A study of Mus musculus with 12 samples.

Results

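The glycolysis enzymes described here are 10 genes, Hk1, Gpi1, Pfkl, Pfkp, Aldoa, Aldoc, Gapdh, Pgk1, Pkm and Ldha, chosen by name out of 38720 genes listed in each of 2 tables of gene expression from the newborn mouse retina. All 10 were listed in both tables and passed the filter on low values in both. The study deleted Ezh2, the methyltransferase of Polycomb repressive complex 2 that places the repressive H3K27me3 mark, in the cells that express Math5 (Atoh7), and asked how gene expression in retinal ganglion cells (RGCs) and in the other retinal cells changed. RNA was sequenced from pups of the C57/BL6 strain at postnatal day 0 in 4 groups of 3 libraries. The mKO groups carried Math5Cre and homozygous floxed Ezh2 (Math5Cre+;Ezh2f/f), and the WT groups were labelled wild type, with no further allele given. Retinas were dissociated with papain, RGCs were taken with magnetic beads against Thy-1 (CD90), and the cells left behind are called non-RGCs. Math5-Cre is a knock-in at the Math5 locus and is active in only part of the RGC lineage, so an mKO library can hold cells that kept Ezh2. No Cre allele is named for the WT groups, so the loss of Ezh2 and the Cre allele cannot be told apart. The fractions are mixtures, and in such bulk RNA fewer cells of a type and less RNA per cell cannot be told apart.

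Glycolysis splits glucose into pyruvate in the cytosol and yields ATP, and lactate dehydrogenase turns pyruvate into lactate so that the pathway can go on. The retina is known for making lactate from glucose even when oxygen is present, above all in photoreceptors, while most enzymes of the pathway exist as isozymes from separate genes that differ between neurons, glia and dividing cells. Many genes of the pathway are known targets of the hypoxia inducible factor HIF1, which binds a short RCGTG core in DNA.

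The values are reads of each library, recovered exactly from the group means of normalized reads in the 2 tables, and then divided by the size factor of the library. The 12 libraries held between 7139633 and 13014004 reads on genes. Libraries are lettered A to C within a group from the deepest to the shallowest, and the letters do not pair libraries across groups. Library C of the WT non-RGCs and library C of the WT RGCs stood apart, with 11.8% and 11.2% of well measured genes more than 1.5-fold away from both other libraries of the group, against 4.74% or fewer in the other 10. Library C of the mKO non-RGCs was the shallowest. Ezh2 itself could not check the labels. Reads were counted over the whole gene, only some of its exons are floxed, and Cre is active in only part of the RGC lineage. Ezh2 had 1354 to 1476 normalized reads in mKO RGCs and 1190 to 1678 in WT RGCs, which overlapped. Before scaling, its reads ran from 1533 to 1601 in mKO RGCs and from 1111 to 1438 in WT RGCs. Why they were not lower in mKO was not tested. The Thy1 transcript, the target of the beads, had 1511 to 2362 reads in the RGC libraries, 66 to 87 in the mKO non-RGCs and 2 to 9 in the WT non-RGCs.

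Upstream sequences of the genes are shown because the pathway is a textbook set of HIF1 targets and because 9 of the 10 genes moved together in RGCs while Pfkp did not. RefSeq start sites were found for 10 of 10 genes, 16 starts in all, on the mouse build GRCm38.p6. The 250 bases before a start are given 5′ to 3′ on the strand of the gene, with ACGTG or GCGTG on either strand in capitals. Ldha, lactate dehydrogenase A (the first of its 2 starts, chr7:46845554-46845803, plus strand), and Pgk1 (chrX:106186850-106187099, plus strand) are the 2 of the lower genes with the most ACGTG, so they do not stand for the rest, and Pfkp (chr13:6648772-6649021, minus strand) is the gene that was not called.
Ldha: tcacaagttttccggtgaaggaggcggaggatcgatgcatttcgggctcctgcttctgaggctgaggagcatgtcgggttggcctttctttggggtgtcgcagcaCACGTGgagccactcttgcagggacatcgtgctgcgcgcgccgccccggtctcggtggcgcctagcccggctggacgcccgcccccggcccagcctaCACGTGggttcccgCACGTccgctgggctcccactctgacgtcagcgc
Pgk1: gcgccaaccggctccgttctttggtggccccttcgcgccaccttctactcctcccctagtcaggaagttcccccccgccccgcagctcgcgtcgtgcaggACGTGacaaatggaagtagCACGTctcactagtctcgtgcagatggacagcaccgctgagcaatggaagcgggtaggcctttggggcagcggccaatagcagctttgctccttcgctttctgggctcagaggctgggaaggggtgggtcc
Pfkp: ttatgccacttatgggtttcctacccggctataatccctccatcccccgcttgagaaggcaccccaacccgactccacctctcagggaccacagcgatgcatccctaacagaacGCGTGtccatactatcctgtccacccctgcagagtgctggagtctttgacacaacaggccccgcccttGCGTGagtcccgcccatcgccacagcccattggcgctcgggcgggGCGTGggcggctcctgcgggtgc
ACGTG on either strand was found in 5 of the 16 windows of the 10 genes, those of Ldha, Pgk1, Aldoa and Pkm, and 16.6% of all 32851 upstream windows of the same length held it. The other lower genes, Hk1, Gpi1, Pfkl, Aldoc and Gapdh, had none in these windows, and Gpi1 had no GCGTG there either. GCGTG was found in 7 of the 16 windows and in 28.2% of all windows. The palindrome CACGTG, which contains ACGTG on both strands, was found in 1 of the 16, before Ldha, and in 6.02% of all windows. GGGCGG, the core of an Sp1 box, was found in 8 of the 16 and in 32.7% of all windows, and TATAAA in 0 of the 16 and in 12.4% of all windows. Windows of 1 gene can overlap, as those of Aldoa do. A match describes letters in the window and is not a binding site.

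In RGCs, 9 of the 10 glycolysis enzymes were lower in mKO than in WT, and 0 were higher. The exception was Pfkp, the platelet type of phosphofructokinase. The size of the change ran from a log2 difference of -0.47 for Hk1 to -0.71 for Ldha (mKO minus WT, on the log2(normalized reads + 1) scale), and the median of the 10 genes was -0.55, beside -0.0024 over the 16085 genes tested. Across all genes tested, 21.2% were called lower in mKO RGCs at an adjusted p under 0.05 (limma with a mean-variance trend, Benjamini-Hochberg adjustment over all genes tested). For the same 9 genes every mKO RGC library lay below every WT RGC library in normalized reads, a pattern found in 28.2% of all genes tested. The count of 9 was the same without library C of the WT RGCs. A single gene compared over 3 against 3 libraries by an exact permutation test cannot go below a two-sided p of 0.1.

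**Figure D1:**
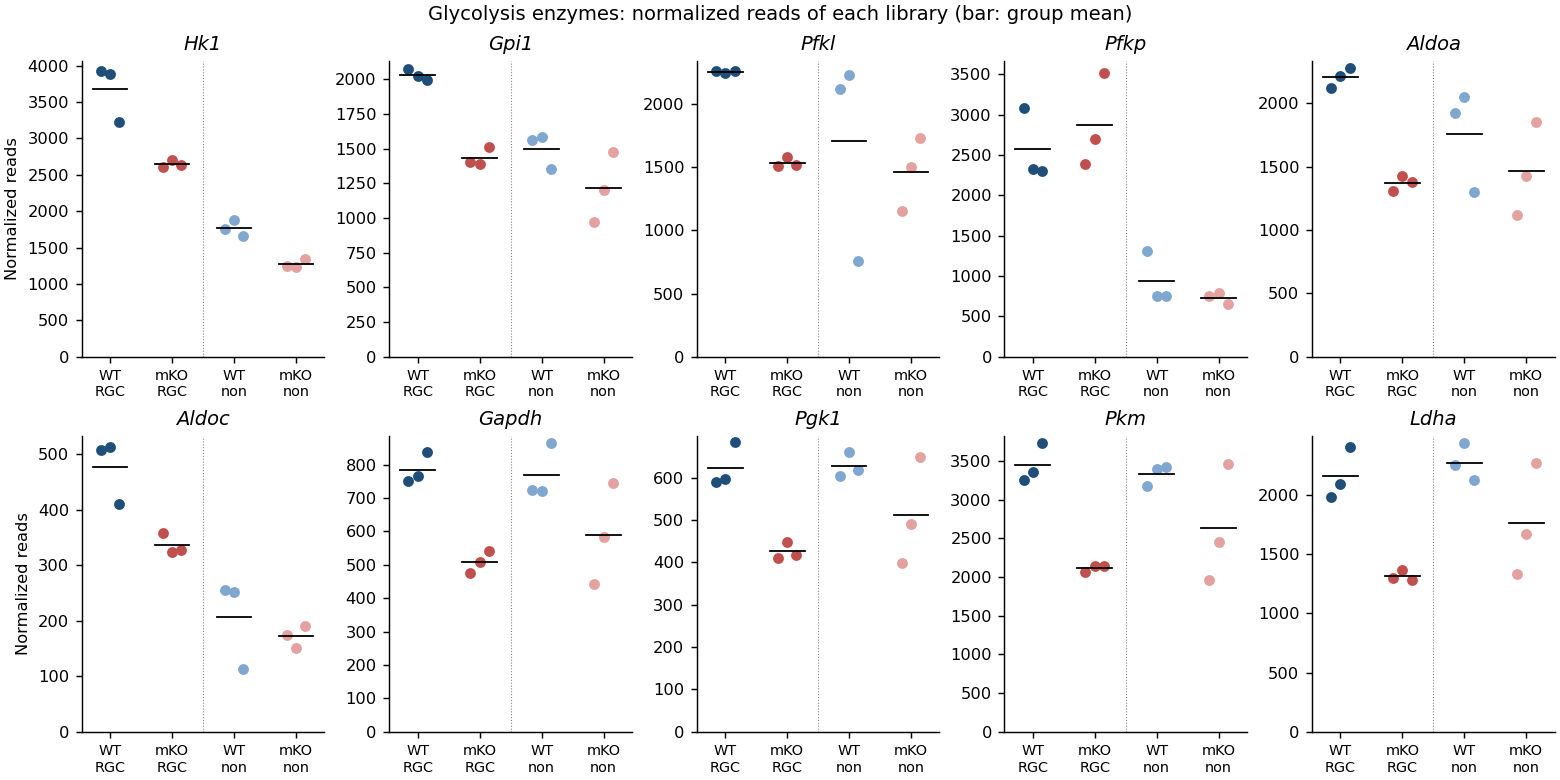
Normalized reads (vertical axis, from 0) of the 10 glycolysis enzymes in each of the 12 libraries, by group, with 3 points per group for libraries A, B and C from left to right and a bar at the group mean. In 9 panels the 3 mKO RGC points lie below the 3 WT RGC points, and in the Pfkp panel they overlap.

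Gene positions are those of GENCODE M21 on GRCm38, the build of the alignments (mm10). Hk1 (chr10:62268855-62379908, minus strand) encodes hexokinase 1, which phosphorylates glucose on entry and is the main hexokinase of neurons. Its normalized reads were 3928, 3891 and 3223 in WT RGCs and 2605, 2702 and 2635 in mKO RGCs. The mKO libraries lay close together and below the lowest WT library, which was library C. The log2 difference was -0.47 (SE 0.083, limma adjusted p = 0.0052).

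Gpi1 (chr7:34201330-34230336, minus strand) encodes glucose-6-phosphate isomerase, which makes fructose-6-phosphate. It had 2076, 2026 and 1993 normalized reads in WT RGCs against 1402, 1392 and 1513 in mKO RGCs. The groups were far apart relative to the spread inside them, with a log2 difference of -0.50 (SE 0.055, limma adjusted p = 0.00095).

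The phosphofructokinases catalyse the committed step of the pathway. Pfkl (chr10:77986947-78010083, minus strand) is the liver type and Pfkp (chr13:6579768-6648777, minus strand) the platelet type. Pfkl had 2265, 2248 and 2261 normalized reads in WT RGCs and 1508, 1580.4 and 1514 in mKO RGCs, a log2 difference of -0.56 (SE 0.048, limma adjusted p = 0.00065). This was the narrowest spread among the 10 genes in WT RGCs (SD 8.80, n = 3). Pfkp had 3081, 2329 and 2297 normalized reads in WT RGCs and 2387, 2696 and 3520.4 in mKO RGCs. The ranges overlapped, with library A of the WT group and library C of the mKO group above the others of their group. The log2 difference of 0.15 had a 95% confidence interval from -0.24 to 0.55 (limma adjusted p = 0.51). That interval does not reach the change of Pfkl. The 3′ end of Pfkp overlaps Pitrm1 on the other strand by 748 bases, and whether counting used the strand is not given in the sources used here, so reads there cannot be assigned with certainty. The same holds for Hk1 and its antisense gene Hk1os and for Gpi1 and the noncoding gene Gm26762.

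Aldolase cuts fructose-1,6-bisphosphate into 2 trioses. Its muscle and general form is Aldoa (chr7:126795234-126800751, minus strand) and its brain form Aldoc (chr11:78322968-78327781, plus strand). Aldoa had 2123, 2220.1 and 2277 normalized reads in WT RGCs against 1311, 1425 and 1379 in mKO RGCs, a log2 difference of -0.69 (SE 0.056, limma adjusted p = 0.00065). Aldoc had 508, 512 and 411 in WT RGCs and 359, 325 and 327 in mKO RGCs. All mKO libraries were lower than all WT libraries for both genes. The log2 difference of Aldoc was -0.49 (SE 0.109, limma adjusted p = 0.012), and its call was lost without library B or library C of the mKO RGCs (limma adjusted p = 0.0507 and 0.0515).

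Gapdh (chr6:125161715-125166467, minus strand) encodes glyceraldehyde-3-phosphate dehydrogenase, the NADH-making step, and is a common loading control. It had 751, 765 and 838 normalized reads in WT RGCs and 475, 509 and 540.2 in mKO RGCs, a log2 difference of -0.63 (SE 0.078, limma adjusted p = 0.0014). Its level is uncertain, because 80.3% of the stretches of 75 bases in its transcript also occur in other annotated genes, 115 of them processed pseudogenes. The tables listed 102 pseudogene copies, and their summed reads were between 65.6% and 179% of the reads on Gapdh itself. The copies went the other way, with summed normalized reads of 585, 535 and 571 in WT RGCs and 702, 764 and 692 in mKO RGCs. Gapdh and its copies together had 1336, 1301 and 1409 in WT RGCs and 1177, 1273 and 1232 in mKO RGCs, so that every mKO library was still lower, with a log2 ratio of means of -0.14.

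Pgk1 (chrX:106187100-106203699, plus strand) encodes phosphoglycerate kinase 1, the first ATP-making step. It had 589, 598 and 684 normalized reads in WT RGCs against 411, 449 and 418 in mKO RGCs, a log2 difference of -0.55 (SE 0.085, limma adjusted p = 0.0031). It shared 67.5% of its 75-base stretches with 4 processed pseudogenes, and the 2 copies in the tables held at most 1 read in any library. That does not show whether reads on shared stretches were kept for Pgk1 or lost, so its level is uncertain too.

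Pkm (chr9:59656368-59679375, plus strand) encodes the muscle type pyruvate kinase, whose M1 and M2 isoforms were not separated in gene counts. The gene Gm49759 overlaps it by 3887 bases on the same strand. Of the 75-base stretches of Pkm, 19.6% also occur in other annotated genes, 2 of them processed pseudogenes. Whether either bore on its reads was not tested. Its normalized reads were 3256, 3359.9 and 3731 in WT RGCs and 2065, 2147 and 2139.9 in mKO RGCs, a log2 difference of -0.70 (SE 0.064, limma adjusted p = 0.00066). Ldha (chr7:46841475-46855627, plus strand) had 1981, 2092 and 2405 in WT RGCs against 1298, 1364 and 1286 in mKO RGCs. The log2 difference was -0.71 (SE 0.080, limma adjusted p = 0.00099), and the level fell by 38.8%. Ldha, Pkm and Aldoa changed most, and their order among themselves was not fixed, since Pkm was at -0.71 and Ldha at -0.69 without library C of the mKO RGCs.

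The raw reads of 7 of the 9 genes already separated the groups before any scaling, although the mKO RGC libraries were the deeper ones. The 7 were Gpi1, Pfkl, Aldoa, Gapdh, Pgk1, Pkm and Ldha, and 11.4% of all genes tested had raw reads that were lower in every mKO library. Together the 10 genes took 15.8 to 16.5 of every 10000 reads in WT RGCs and 12.2 to 13.1 in mKO RGCs.

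The change in mKO RGCs followed base composition and read density across all genes. Over 12262 well measured genes the log2 difference correlated with the GC content of the transcript (Spearman's rho = -0.73) and with reads per base (rho = -0.45), as a description across genes that share the same 6 libraries. Of the 10 glycolysis enzymes, 8 had more GC than the median of all genes and 9 more reads per base, the side of these trends where genes were lower. The exceptions were Pfkp and Pgk1 for GC and Aldoc for reads per base. Their transcripts hold 48.9% to 57.7% GC beside a median of 50.2%, and they carried from 15.9 (Aldoc) to 131.1 (Aldoa) reads per 100 bases in WT RGCs beside a median of 18.7. Pfkp has the lowest GC content of the 10 genes. Set against all genes of the same GC content, 8 of the 10 enzymes were below the interquartile range, and Hk1 and Pfkp were inside it.

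**Figure D2:**
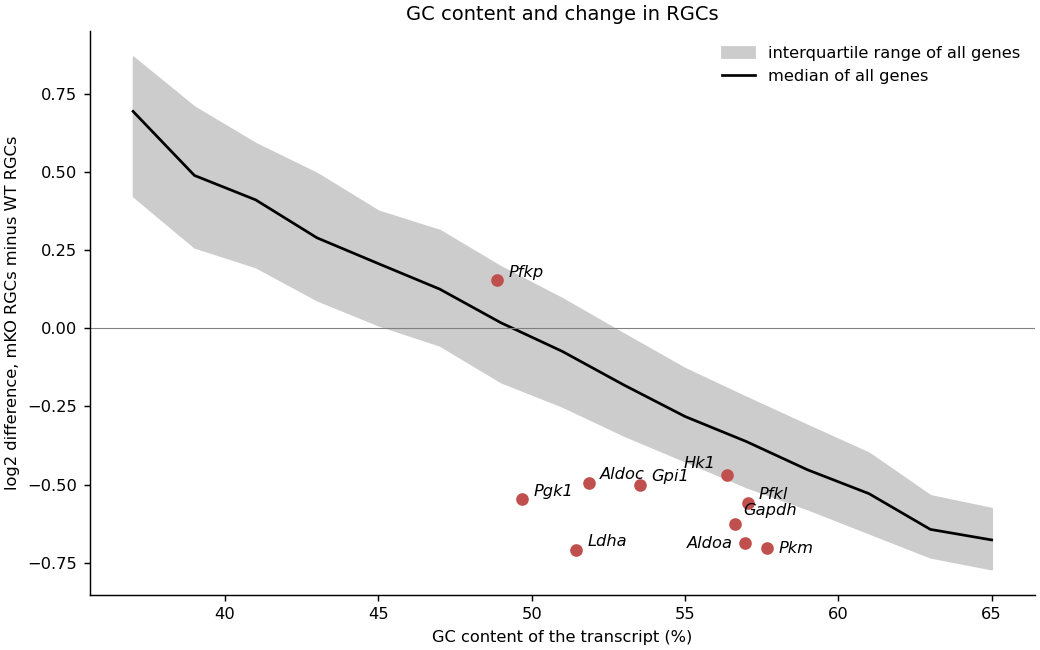
GC content of the transcript (horizontal axis, %) against the log2 difference of mKO RGCs minus WT RGCs (vertical axis). The line is the median and the grey band the interquartile range of all genes in bins of GC content. Of the 10 enzymes, 8 lie below the band, Pgk1 and Ldha farthest, and Hk1 and Pfkp lie inside it, Pfkp above the median line.

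With the GC trend removed from each library, 7 of the 10 genes were still called lower in mKO RGCs, where 8.61% of all genes were. Hk1 (log2 difference -0.13, limma adjusted p = 0.40) and Aldoc (-0.36, limma adjusted p = 0.086) were no longer called. With the trend on reads per base removed as well, 1 of the 10 genes was called lower, Pgk1 (log2 difference -0.51, SE 0.076, limma adjusted p = 0.025), where 2.16% of all genes were, and 6 of the 10 had an unadjusted limma p under 0.05. Aldoc was then at -0.46 and Ldha at -0.28 (limma adjusted p = 0.081 and 0.072), and Hk1 was at 0.03. The median of the 10 genes moved from -0.55 to -0.29 and then to -0.13. Removing a trend on read density also takes away any change that abundant genes share. Reads per base were taken over the whole transcript, which for Pgk1 and Gapdh includes many stretches shared with other genes.

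**Figure D3:**
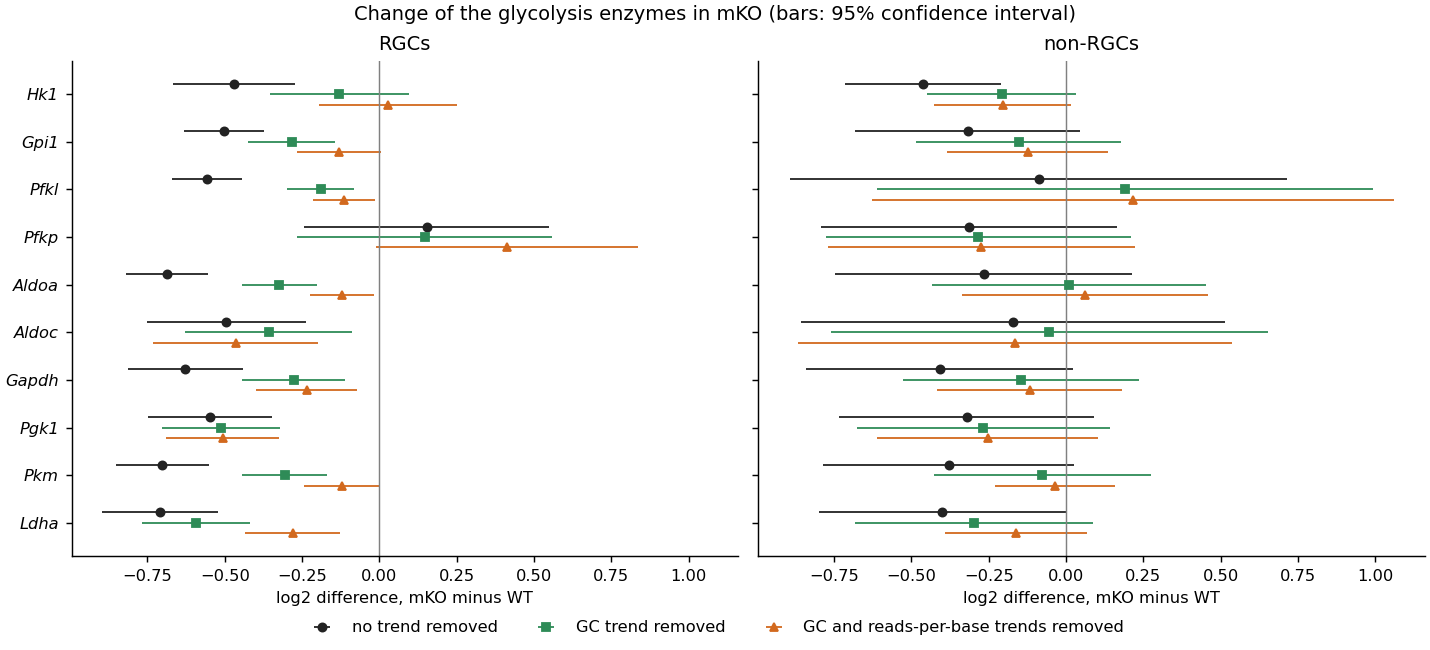
The log2 difference of mKO minus WT (horizontal axis) for each glycolysis enzyme in RGCs (left) and non-RGCs (right), with bars for the 95% confidence interval. Circles have no trend removed, squares have the GC trend removed and triangles have both the GC and the reads-per-base trend removed. In RGCs the values move toward 0 from circles to triangles for most genes, while Pgk1 stays near -0.5.

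In non-RGCs all 10 genes had log2 differences below 0 (Pfkl came to 0.082 when libraries were scaled by total reads), from -0.09 for Pfkl to -0.46 for Hk1, with a median of -0.32 beside -0.026 over the 15326 genes tested. Hk1 was the only one called lower, and 6.43% of all genes tested were. It had 1754, 1880.2 and 1653 normalized reads in WT non-RGCs against 1251, 1234 and 1347 in mKO non-RGCs, a log2 difference of -0.46 (SE 0.113, limma adjusted p = 0.033). It was also the only one of the 10 whose groups did not overlap, a pattern found in 19.2% of all genes tested. The call of Hk1 was lost without any one of libraries A and B of either genotype (limma adjusted p from 0.059 to 0.167), and with the GC trend removed (log2 difference -0.21, limma adjusted p = 0.28). With both trends removed, 0 of the 10 were called in non-RGCs, 0 had an unadjusted limma p under 0.05, and 0.538% of all genes were called lower.

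The spread inside the non-RGC groups was wide for most of the pathway. Pkm had 3173, 3389 and 3425 normalized reads in WT non-RGCs and 1964, 2456 and 3461 in mKO non-RGCs. Ldha had 2254, 2440.5 and 2127 against 1337, 1671 and 2275. In both genes library C of the mKO non-RGCs reached the WT range and the other mKO libraries did not. The log2 differences were -0.38 for Pkm (SE 0.181, limma adjusted p = 0.19) and -0.40 for Ldha (SE 0.178, limma adjusted p = 0.17), and without that library both were called lower (-0.60 and -0.60, limma adjusted p = 0.028 and 0.032), which brought the count of called genes to 3.

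Gapdh, Pgk1 and Gpi1 had the same shape, with library C of the mKO non-RGCs at 744, 649.6 and 1477 normalized reads and the other mKO libraries between 398 and 1202. Their log2 differences were -0.41, -0.32 and -0.32, none of which passed the test. The Gapdh copies again went the other way, with 791, 851 and 974 summed normalized reads in mKO non-RGCs against 643, 708 and 567 in WT non-RGCs, and Gapdh with its copies overlapped between genotypes.

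Pfkl and Aldoc moved most with library C of the WT non-RGCs, and Aldoa with that library and with libraries A and C of the mKO group. Pfkl had 2122, 2232 and 758 normalized reads in that group and 1151, 1499 and 1729.9 in mKO non-RGCs. Aldoa had 1926, 2051 and 1303 against 1120, 1428 and 1849.9, with the mKO libraries in the same order as for Pkm and Gapdh. Aldoc had 254, 252 and 113 against 175, 152 and 191. Library C was the lowest WT library in each, and for Pfkl and Aldoc it lay below every mKO library. Pfkp had 1313, 748 and 753 in WT non-RGCs and 749, 785 and 654 in mKO non-RGCs, where library A of the WT group stood above the other 5.

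In the mKO non-RGCs the reads of several enzymes hardly grew with depth. Library A held 1.80 times the reads of library C, yet Pkm had 2549 reads in A and 2451 in C, a ratio of 1.04. The ratio was 1.08 for Ldha, 1.09 for Gapdh, 1.11 for Aldoa and 1.12 for Pgk1. Gpi1 was at 1.20 and Pfkl at 1.22. The ratio was closer to that of the totals for Aldoc (1.68) and Hk1 (1.70), and Pfkp was at 2.10. Density over the whole transcript did not order the enzymes throughout, since Pgk1, at 27.2 reads per 100 bases in this group, was below Hk1, at 30.1. However, 67.5% of the 75-base stretches of Pgk1 also occur in other genes, against 1.97% for Hk1. If reads on shared stretches were lost, the density of Pgk1 is understated, and this was not tested. Across all genes the median ratio fell from 2.41 under 5 reads per 100 bases to 1.16 above 80. The deposited files are marked as deduplicated, which for single-end reads usually means that reads with the same start are kept once, and the part of this step in the ratios was not tested. At equal reads a shallower library has the higher normalized reads. Without scaling, the raw reads of Gpi1, Gapdh, Pgk1, Pkm and Ldha were lower in all mKO than in all WT non-RGC libraries, where 14.4% of all genes tested were.

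**Figure D4:**
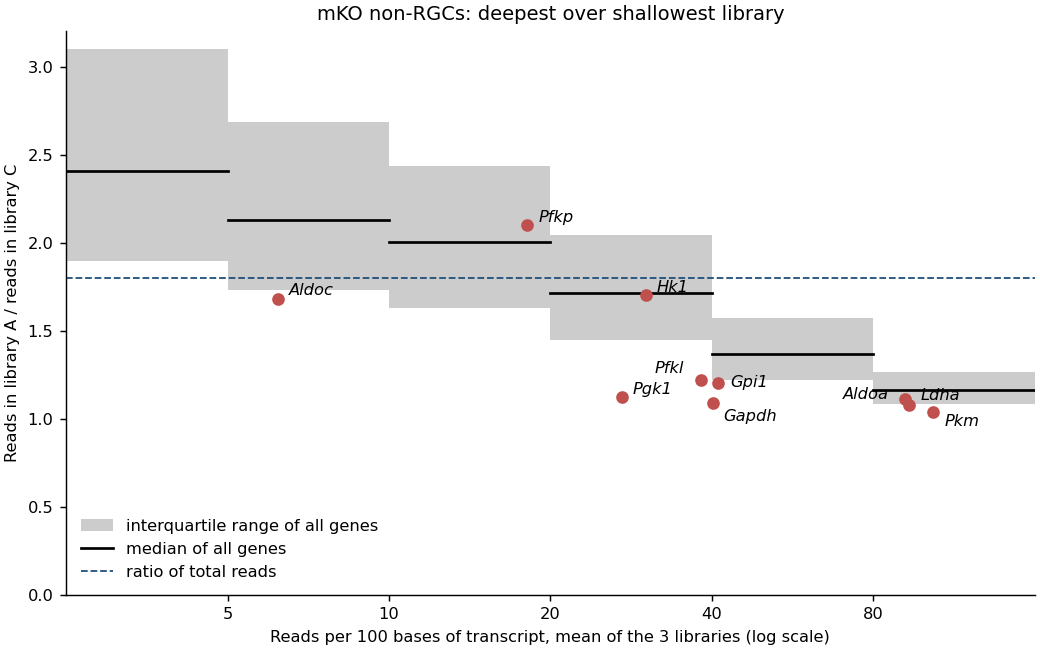
Reads per 100 bases of transcript (horizontal axis, log scale) against reads in the deepest library over reads in the shallowest library of the mKO non-RGCs (vertical axis), with the 10 glycolysis enzymes as points. Black lines and grey boxes give the median and the interquartile range of all genes in each range, and the dashed line marks the ratio of the total reads, 1.80. Pkm, Ldha, Gapdh, Aldoa and Pgk1 lie between 1.04 and 1.12, and Pfkp at 2.10.

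Whether the genotype change differed between the fractions was tested directly. None of the 10 genes passed this test of the difference over all 12 libraries (limma with Benjamini-Hochberg adjustment, adjusted p from 0.57 to 0.99), and 0 of the 10 had an unadjusted p under 0.05. In all 14894 genes tested, 0.107% passed. The largest differences, RGC change minus non-RGC change, were -0.47 for Pfkl (95% confidence interval -1.41 to 0.47), 0.47 for Pfkp (-0.17 to 1.10) and -0.42 for Aldoa (-0.96 to 0.12). Hk1 changed by nearly the same amount in both fractions, with a difference of -0.0066 (-0.28 to 0.27). The intervals are wide, so that a difference as large as the change in RGCs is inside most of them.

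Levels between genes were compared per length, as RPKM, the reads divided by the transcript length and by the reads of the library. That length includes stretches shared with other genes, 80.3% of the 75-base stretches of Gapdh and 67.5% of those of Pgk1. The levels of Gapdh and Pgk1 may therefore be understated, and so may their places in the order. In WT RGCs Aldoa (113.9, range 109.7 to 118.8) and Pkm (113.4, range 107.1 to 124.0) were the highest and did not differ beyond their spread. Ldha followed at 95.1, then Hk1 at 68.7 and Gpi1 at 56.3, each below the range of the gene before it. Gpi1 overlapped with Pfkp (49.5), Pfkp with Pfkl (48.4) and Pfkl with Gapdh (44.2). Pgk1 at 27.3 and Aldoc at 13.7 were the lowest, and neither overlapped with the gene above it. In mKO RGCs the order was the same except that Pfkp, at 60.1, stood between Ldha and Hk1 and overlapped with both.

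In WT non-RGCs the order was Pkm (122.2), Ldha (112.0), Aldoa (101.9), Gapdh (48.3), Gpi1 (46.4), Pfkl (41.2), Hk1 (36.8), Pgk1 (30.7), Pfkp (20.3) and Aldoc (6.66). The first 3 overlapped in a chain, and so did the run from Gapdh to Hk1. The limit on the places of Gapdh and Pgk1 holds here as well. Set beside each other as shares of the reads of a library, and only as a description because the tables were normalized separately, WT RGCs held 2.44 times as much Pfkp as WT non-RGCs, 2.05 times as much Aldoc, 1.87 times as much Hk1 and 1.21 times as much Gpi1, with no overlap of the libraries. The other 6 overlapped between the fractions, from 0.85 for Ldha to 1.18 for Pfkl. Between the mKO fractions Pfkp (3.39), Hk1 (1.79) and Aldoc (1.69) were again higher in RGCs with no overlap, Ldha (0.65), Pkm (0.70) and Pgk1 (0.72) were lower in RGCs with no overlap, and the other 4, Gpi1 (1.02) among them, overlapped. With size factors over all 12 libraries Pkm and Pgk1 overlapped as well. The share of all genes without overlap between the fractions was not counted, so these genes cannot be set against it. In WT, Eno2, the neuronal enolase, was at 2.63 with no overlap, and Hk2, the hexokinase of growing cells, at 0.45 with no overlap.

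Isozyme shares, computed from reads per base within each library, do not depend on the size factors. The genes of a pair can differ in GC content, as Pfkp (48.9%) and Pfkl (57.1%) do. The part of the GC trend in the shares was not tested. Pfkp made up 55.0%, 48.2% and 47.8% of the sum of Pfkp and Pfkl in WT RGCs and 58.8%, 60.6% and 67.7% in mKO RGCs, with no overlap. In non-RGCs the share was lower and overlapped, 23.2% to 47.2% in WT and 25.4% to 36.9% in mKO. Aldoc made up 9.12% to 11.7% of both aldolases in WT RGCs and 11.2% to 13.2% in mKO RGCs, which overlapped. Ldhb, the heart type lactate dehydrogenase, rested at 38.5% to 40.2% of the sum with Ldha in WT RGCs and 43.8% to 45.7% in mKO RGCs, and at 35.2% to 38.1% and 39.8% to 42.2% in WT and mKO non-RGCs. Hk2 was 6.51% to 8.93% of the sum with Hk1 in WT RGCs and 9.75% to 11.4% in mKO RGCs, and the non-RGC groups overlapped (18.2% to 27.8% and 22.6% to 28.2%). Eno2 was 48.6% to 58.0% of the sum with Eno1 in WT RGCs and 57.2% to 59.6% in mKO RGCs, which overlapped. In the Aldoc, Ldhb and Hk2 pairs the partner had more reads per base, and the part of duplicate removal in the shares was not tested.

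**Figure D5:**
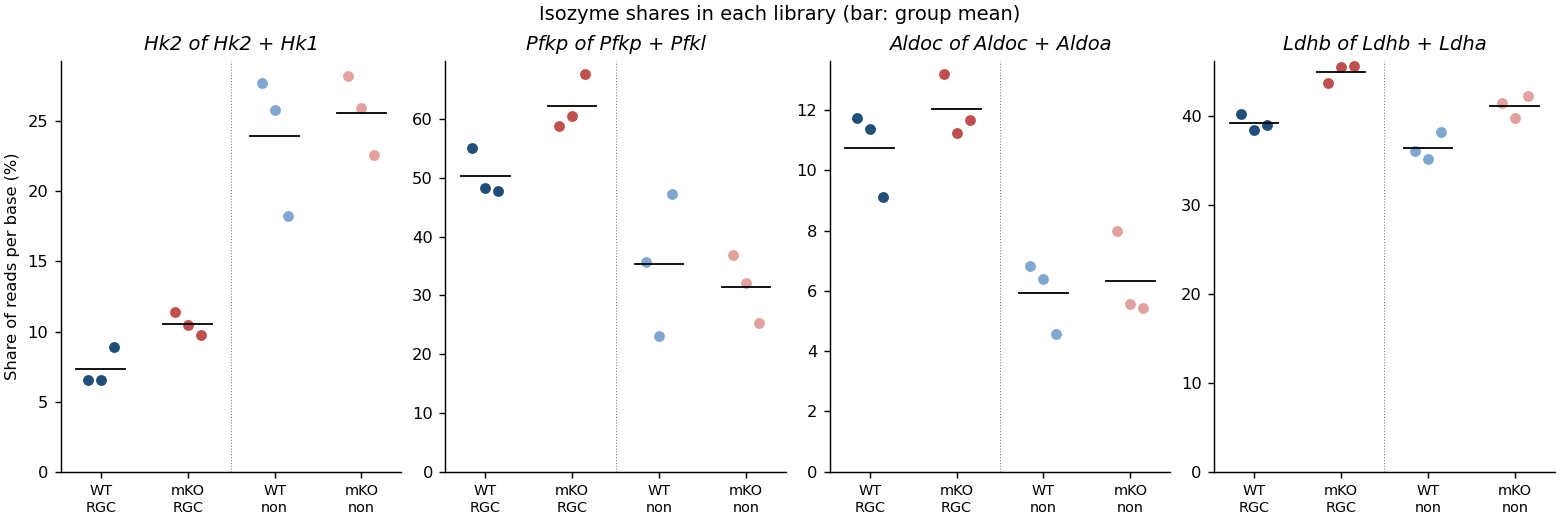
Share of one isozyme in the summed reads per base of a pair (vertical axis, %, from 0) in each of the 12 libraries, with a bar at the group mean. The Pfkp share is 58.8% to 67.7% in mKO RGCs and 47.8% to 55.0% in WT RGCs, and the Ldhb share is higher in mKO than in WT libraries of either fraction.

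The remaining steps of the pathway were carried by 19 other glycolytic enzymes, of which 17 were tested in RGCs. Of these, 6 were lower in mKO RGCs, 0 were higher and 11 did not pass, with a median log2 difference of -0.15. Over all genes tested in RGCs, 21.2% were lower and 16.3% higher. Without library A or C of the mKO RGCs the call of Ldhb was lost (limma adjusted p = 0.058 and 0.0504). The 4 with the largest changes were Pgam1 (-0.79), Eno1 (-0.68), Tpi1 (-0.63) and Eno2 (-0.44), followed by Ldhb (-0.37) and Pfkm (-0.34), with limma adjusted p from 0.00093 to 0.013. Tpi1, triosephosphate isomerase, had 1481, 1494 and 1691 normalized reads in WT RGCs and 959, 1051 and 995 in mKO RGCs. Pgam1, phosphoglycerate mutase 1, had 323, 317 and 337 against 188, 189 and 187, and with both trends removed it was still called lower (-0.70, limma adjusted p = 0.015). In non-RGCs limma called 0 of the 14 genes tested, with 1 at an unadjusted p under 0.05. Tpi1 (-0.32), Eno1 (-0.39), Pgam1 (-0.48), Eno2 (-0.03) and Ldhb (-0.11) did not pass there, but without library C of the mKO non-RGCs Eno1 did (-0.59, limma adjusted p = 0.041).

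Among 15 tested regulators of the pathway and carriers of glucose and lactate, 4 were lower and 1 was higher in mKO RGCs (3 to 7 and 1 to 3 with any 1 library left out), beside 21.2% and 16.3% of all genes tested. The lower ones were Slc16a3 (log2 difference -0.93), the lactate exporter MCT4, Epas1 (-0.82), which encodes HIF2α, Slc2a1 (-0.70), the glucose transporter GLUT1, and Bsg (-0.63), the chaperone of the lactate carriers. Pfkfb2, which makes the activator of phosphofructokinase, was higher (0.60), and limma adjusted p over the 5 ran from 0.0011 to 0.021. Slc2a1 had 1879, 2047 and 3111 normalized reads in WT RGCs and 1420.5, 1491 and 1309.9 in mKO RGCs. Its call was lost without any one of the mKO RGC libraries (limma adjusted p from 0.054 to 0.077). Hif1a itself was at -0.11 (limma adjusted p = 0.16). With both trends removed, limma called 0 of the 15, and 6 had an unadjusted p under 0.05. In non-RGCs Epas1 was the only one called (-1.06, limma adjusted p = 0.045), and not without library B of the mKO group or any WT library (limma adjusted p from 0.056 to 0.119).

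The branches out of the pathway were counted in the same way. Of 7 genes of the pentose phosphate pathway, 5 were lower in mKO RGCs and 0 were higher, Pgls (-0.69), Tkt (-0.59), Taldo1 (-0.53), Pgd (-0.27) and G6pdx (-0.26), and with both trends removed limma called 0, with 3 at an unadjusted p under 0.05. Of 14 genes of pyruvate entry into mitochondria, 5 were lower and 1 was higher, with a median of -0.03, and leaving out 1 library took the lower count to between 1 and 5 and the higher count to between 0 and 3. Mpc2, a subunit of the mitochondrial pyruvate carrier, was lower (-0.34) with any library left out. Mpc1, Pdha1, Pdhb and Pdk2 were also lower and Pdp1 was higher, and each lost its call in some of these fits. Mpc1 lost it without library A or B of the WT group or any mKO library (limma adjusted p from 0.057 to 0.132). Of 3 tested genes of gluconeogenesis 3 were lower, Pck1 (-3.12), G6pc3 (-0.39) and Pck2 (-0.25, not called without library A or B of the WT group or any mKO library, limma adjusted p from 0.057 to 0.148). Pck1, which kidney also expresses, had 13 to 39 reads in WT RGCs and 1 to 5 in mKO RGCs. A list of 6 kidney genes moved with it, with summed normalized reads of 51.7 to 86.8 in WT RGCs and 3.69 to 6.59 in mKO RGCs, and of 59.4 to 74.9 and 3.85 to 6.71 in WT and mKO non-RGCs. Of that list 3 genes passed the filter in RGCs, Umod, Kap and Slc34a1, and all 3 were called lower. Their part in the Pck1 result was not tested. Of 15 HIF targets outside glycolysis, 4 were lower and 1 was higher, with a median of -0.11, beside 21.2% of all genes lower, and with both trends removed 2 were called lower. Those lower were Ddit4 (-0.55), Ndrg1 (-0.54), Egln1 (-0.40) and Mxi1 (-0.34), and Ero1l was higher (0.43). In non-RGCs limma called 0 of the 7 pentose phosphate genes and 0 of the 14 pyruvate genes, with 1 and 3 at an unadjusted p under 0.05. Pck1 (-4.42), Egln1 (-0.45) and Mxi1 (-0.51) were lower there, the last 2 not without library A or B of either genotype (limma adjusted p from 0.062 to 0.154).

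Markers of the cell types that the fractions can hold also differed between genotypes, some in the direction of the glycolysis enzymes and some against it. In mKO RGCs, 10 of the 12 RGC markers fell and 0 rose, with a median log2 difference of -0.47, beside 21.2% of all genes lower. With both trends removed 2 of the 12 were called lower, with a median of -0.079. Their summed normalized reads were 32395 to 35033 in WT RGCs and 23384 to 24514 in mKO RGCs. Thy1 (-0.73), Tubb3 (-0.68), Pou4f1 (-0.63) and Sncg (-0.58) changed most. In non-RGCs 8 of the 12 RGC markers were higher in mKO and 0 were lower, beside 4.18% of all genes higher. With any 1 library left out, 2 to 7 of them were higher. The sum of the 12 markers was 6008 to 8209 in mKO and 5635 to 5968 in WT non-RGCs. Photoreceptor markers were lower in both fractions, 5 of 10 in each (2 to 7 in RGCs and 0 to 5 in non-RGCs with any 1 library left out), with sums of 5851 to 6380 in mKO RGCs and 7223 to 10616 in WT RGCs, and of 9991 to 11763 and 14367 to 16383 in mKO and WT non-RGCs. Progenitor markers were lower for 4 of 10 in RGCs (2 to 6 with any 1 library left out) and 1 of 10 in non-RGCs (0 to 3), amacrine markers for 4 of 8 and 2 of 8 (0 to 3 in non-RGCs), astrocyte and Müller markers for 2 of 7 (1 to 3 in RGCs) and 1 of 7, and endothelial and pericyte markers for 1 of 9 (0 to 2) and 0 of 9 (0 to 3), with none higher in these lists. Over all genes tested, 21.2% were lower in mKO RGCs and 6.43% in mKO non-RGCs. With both trends removed limma called 0 photoreceptor and 0 progenitor markers in either fraction, with 4 and 2 at an unadjusted p under 0.05 in RGCs and 6 and 3 in non-RGCs. That step moved the photoreceptor median log2 difference from -0.52 to -0.42 in RGCs and from -0.50 to -0.37 in non-RGCs. The progenitor median moved from -0.46 to -0.18 in RGCs and from -0.39 to -0.16 in non-RGCs. Microglia markers gave 0 calls by limma in either fraction (0 to 3 lower in RGCs and 0 to 1 in non-RGCs with any 1 library left out), with 4 of 7 at an unadjusted p under 0.05 in RGCs and 0 of 6 in non-RGCs. Globins and other blood genes were higher, 5 of 6 in each fraction (5 in RGCs and 2 to 5 in non-RGCs with any 1 library left out), with sums of 129 to 148 in WT RGCs and 286 to 349 in mKO RGCs, and of 139.8 to 223 and 571 to 873 in WT and mKO non-RGCs. The part of these mixtures in the change of the glycolysis enzymes was not tested.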

How the data were processed

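The authors sequenced poly-A RNA of 12 libraries from retinal cells at postnatal day 0 (single-end reads), aligned them to mm10 with STAR (2.3.1z4 in the submitters' processing notes), counted reads per gene with featureCounts and normalized them with DESeq, separately for RGCs and non-RGCs. Per the file names, only primary alignments without duplicates were counted. How duplicates were defined is not given in the sources used here. The deposited columns used here are a normalized signal, the mean per group of counts divided by size factors. Columns with the authors' own fold changes, p-values and overall means were not used. Removing single-end duplicates by position limits the count of a gene to the number of its start positions, which could bear on densely covered genes.

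Reads of each library were recovered from each group mean as the 1 set of 3 whole numbers that gives it (100% of genes with reads), and the size factors recomputed from them matched to 1.1e-15. Tested on simulated data, the recovery was exact for 4971 of 4971 genes in mKO RGCs. The recovered reads carry no replicate number. The test was limma (3.58.1, R 4.3.3) with a mean-variance trend on log2(normalized reads + 1), for genes whose mean reached 10 in one genotype or the other, called at a Benjamini-Hochberg adjusted p under 0.05. A count model was not run, since the deposited values are means. In simulated RGC data limma called 99 of 100 genes changed by 1 and 100 of 100 changed by 2 on the log2 scale, and 14 of 15665 unchanged genes. The simulated reads had a single fixed dispersion and held no trend with GC or read density and no outlying library. These rates therefore need not hold for the real libraries. The GC trend was removed with lowess (span 0.3) in each library. For both trends together, the median deviation of the 300 genes nearest in GC content and reads per base was subtracted in each library. Gene models were from GENCODE M21 on GRCm38, with the longest coding transcript for length, GC content and shared stretches of 75 bases. Python 3.11.15 with pandas 2.3.3 and scipy 1.17.1 did the rest.

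The labels do not say whether the 3 libraries of a group came from separate litters. The methods name 3 RNA extractions, so p-values measure the spread between these preparations. The genes and lists were chosen with earlier results of these data known. Named were all 10 enzymes, Eno1, Eno2, Tpi1, Pgam1, Ldhb and Ezh2, and from each other list the genes that passed the test, or at most the 4 with the largest change. Pfkm, Pfkfb2, G6pdx, Mxi1, Hif1a and Hk2 fall outside this rule and were named after their values were seen. For pyruvate entry all genes called in RGCs were named, which goes beyond the rule, and for most marker lists only counts were given. A gene of the list of other glycolytic enzymes is not reported here and was left out of its counts. The alternatives were another pseudocount, other filters, other scalings, limma with no trend, trends removed and each library left out.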

Additional observations from a re-analysis of the deposited data

How the results depend on the processing

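The count of glycolysis enzymes called lower in mKO RGCs was 9 with a pseudocount of 0.5, with no filter, with a minimum mean of 50, with scaling by total reads, with size factors over all libraries and with no mean-variance trend, and 8 to 9 with each library left out. It was 7 with the GC trend removed, 6 with no scaling (a setting chosen after seeing the data) and 1 with the GC and reads per base trends removed. The share of all genes called lower was 8.61%, 6.55% and 2.16% in these settings, and with no scaling 29.9% were higher. In the other settings, apart from libraries left out, the lower share ran from 11.8% with no filter to 26.1% with a minimum mean of 50. In non-RGCs the count of 1 became 0 with no mean-variance trend, with scaling by total reads, with no scaling, and after removal of the GC trend alone or together with reads per base, and 0 to 3 with each library left out. For the settings that gave 0, apart from libraries left out, 2.41%, 2.92%, 0.0065%, 0.524% and 0.538% of all genes were lower, in that order. Why the counts moved was not tested.

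Directions turned for a few genes. In RGCs, Hk1 was at 0.028 with both trends removed, and Pfkp ran from -0.0044 to 0.29 with each library left out. In non-RGCs, Pfkl was at 0.082 with scaling by total reads, 0.19 with GC removed and 0.22 with both removed, and ran from -0.60 to 0.18 with each library left out. Aldoa was at 0.0086 with GC removed and 0.062 with both removed, and Aldoc ran from -0.56 to 0.027 with each library left out. For the difference between fractions, Hk1 was at 0.079 with the GC trend removed, 0.23 with both removed and 0.31 with no scaling, and ran from -0.099 to 0.043 with each library left out. Pfkl ran from -0.74 to 0.038 and Aldoc from -0.52 to 0.063. With no scaling, Gpi1 was at 0.14, Gapdh at 0.10, Pgk1 at 0.093 and Ldha at 0.011. None of the 10 differences was called under any of these settings.

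Scaling by total reads put the median of all genes at 0.12 in RGCs and 0.14 in non-RGCs, against -0.0024 and -0.026, and the median of the 10 enzymes at -0.43 and -0.15. It gave 2240 genes lower and 3846 higher in mKO RGCs, against 3405 and 2622. With both trends removed, 328 genes were lower and 124 higher. In non-RGCs the main counts were 985 lower and 641 higher, and with scaling by total reads 447 and 1329. No paired analysis was possible because the recovered libraries carry no replicate number. In the mKO non-RGCs the reads of several enzymes hardly rose between the shallowest and the deepest library, and the part of duplicate removal in this was not tested.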
